A study of Bos taurus with 6 samples.

Results

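Splicing factors of the HNRNP, SRSF, TRA2, U2AF, SF3A, SF3B and SNRP gene families were examined in bovine (Bos taurus) blastocysts cultured with or without beta-hydroxybutyrate (BHB), a ketone body. Members were taken by gene symbol alone: every name starting with HNRNP, SNRP or U2AF, the numbered SRSF, SF3A and SF3B genes, TRA2A and TRA2B, without SNRPN. The rule gave 56 of 12826 genes in the count table. All 56 symbols that match the same rule in the RefSeq annotation ARS-UCD2.0 were in the table, where 53.9% of all annotated protein-coding symbols were. By role they were 20 hnRNPs, 13 SR and TRA2 proteins, 3 U2AF genes, 9 SF3A and SF3B subunits and 11 SNRP genes.

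The 6 RNA-seq libraries were each made from a pool of embryos produced in vitro from slaughterhouse material and taken at day 7. Embryos of 3 libraries had been treated with BHB, and those of 3 control libraries (labelled CTRL) had not. Both groups thus share in vitro production, and no in vivo embryos were analysed here. How much BHB was used, for how long, and how large the pools were is not stated in the sources, and a pool mixes trophectoderm with inner cell mass. Whether the pools were independent batches is not stated either. The p-values therefore set the difference between groups against the scatter between these libraries, which may be technical.

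Splicing removes introns in several steps, and the members act at different ones. SR proteins bind exonic enhancers and favour the use of nearby splice sites, whereas hnRNPs coat nascent transcripts and often silence sites. U2AF recognises the end of the intron and recruits the U2 particle, whose SF3A and SF3B complexes hold it on the branch site. The SNRP genes encode the ring of Sm proteins around the spliceosomal RNAs and proteins particular to the U1 and U2 particles. Many SR and hnRNP genes also regulate themselves by alternative exons that expose their transcripts to nonsense-mediated decay. Counts per gene sum all such transcripts and carry no information on exon choice.

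Totals ran from 7925889 to 8176648 counts in controls and from 6440732 to 7348949 with BHB, so every BHB library was shallower than every control. Of the marker lists, 10 of 11 trophectoderm, 5 of 6 inner cell mass and 5 of 6 primitive endoderm genes were among the genes counted. Their summed levels were 10600 to 17200, 576 to 635 and 3010 to 3740 CPM (counts scaled to library size, with TMM factors) in controls, and 8330 to 13500, 554 to 621 and 3020 to 3730 CPM with BHB. Of markers of other cells, 4 of 12 cumulus and granulosa genes were counted: CYP19A1, FSHR, STAR and NR5A2. They summed to 34.4 to 40.9 CPM in controls and 33.4 to 37.5 CPM with BHB, and which cells these reads came from was not tested. The counted oocyte (2 of 10), blood (1 of 7) and sperm genes (2 of 5) summed to at most 7.01 CPM per list in any library; the part of these sums in the results was not tested. In bulk pools, fewer cells of a type and less RNA per cell cannot be told apart.

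No member passed the test between BHB and control blastocysts. By edgeR's quasi-likelihood test with Benjamini-Hochberg adjustment, 0 of 56 members passed at 0.05, and the background was 0% of 12732 tested genes. The smallest adjusted p of a member was 0.999. Fold changes of members were small, from 0.868-fold (SF3B1, the branch site subunit) to 1.36-fold (U2AF2, which binds the polypyrimidine tract). DESeq2's Wald test and limma-voom also called 0 members. DESeq2 called 0.0468% of all genes.

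At an unadjusted p under 0.05 there were 3 members, HNRNPUL1, SF3A1 and SNRPA, which is 5.36% of members against 2.73% of all tested genes. This count was 0 without control library 1 (320 of 12786 tested genes) and 0 without control library 2 (234 of 12788). Without control library 3 it was 6, but the count over all tested genes also rose, from 347 of 12732 to 890 of 12786. Those 6 genes (HNRNPAB, HNRNPD, HNRNPU, SRSF2, SRSF4 and SRSF9) did not include the 3. The member count was 1 without each BHB library in turn (536 of 12803, 350 of 12804 and 194 of 12797 tested genes). It was 1 with DESeq2 (297 of 12826) and 6 with scaling by library size alone (336 of 12732). The median log2 fold change (BHB over control) of the 56 members was 0.07 and that of all tested genes -0.005. Values above 0 were seen in 36 of 56 members (64.3%), against 49.1% of all tested genes. Under scaling by library size alone, both medians moved up together, to 0.138 for members and 0.061 for all genes, and 49 members were above 0, against 60.7% of all genes. The small offset was not shared by all BHB libraries. Relative to the control mean, the median member stood at -0.014, 0.001 and -0.004 (log2) in control libraries 1 to 3 and at -0.004, 0.115 and 0.104 in BHB libraries 1 to 3. BHB library 1 was thus inside the control range.

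Fold changes of the members were estimated more precisely than those of all tested genes. The standard error (SE) of the log2 fold change had a median of 0.136 over members and 0.248 over all tested genes. In 43 of 56 members (76.8%) the 95% interval lay wholly within a 1.5-fold change in either direction, against 33.4% of all tested genes. This was not particular to the members: in the lists of partner genes given below, 73.3% to 86.7% of tested genes had such intervals. The members' levels are mostly high, and the comparison with all genes was not matched for level. The intervals are for single genes and are not adjusted for their number. Member totals over the 6 libraries ran from 340 counts (HNRNPUL2) to 60533 counts (HNRNPA2B1). Together the members took 1.57% ± 0.103 (SD, n = 3) of the counts in controls and 1.67% ± 0.0612 (SD, n = 3) after BHB, and the groups overlapped.

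**Figure D1:**
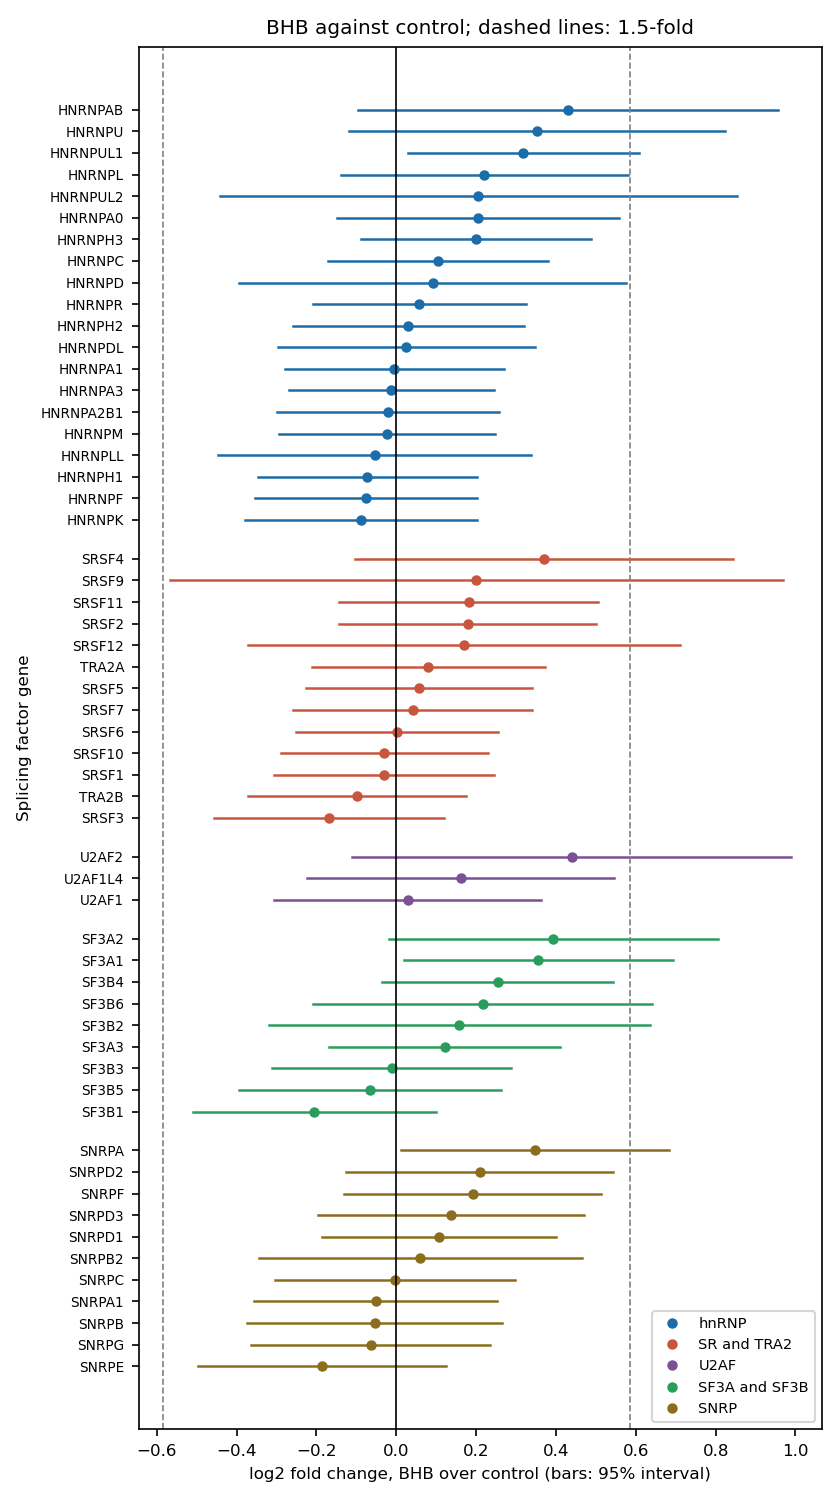
Log2 fold change of BHB over control (x axis) for each of the 56 splicing factor genes (y axis), with the 95% interval of edgeR's quasi-likelihood fit as bars and a 1.5-fold change as dashed lines; colours mark the role groups. For 43 genes the interval lies within the dashed lines, and the intervals of HNRNPUL1, SF3A1 and SNRPA lie above 0.

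Libraries were also compared within pairs. The labels give no pairs. The authors' deposited p-values were returned, within 1e-06, in 99.98% of genes by a DESeq2 likelihood ratio test whose model joined the same-numbered control and BHB libraries, and in at most 0.3976% by any other pairing. With these pairs as a block, edgeR again called 0 of 56 members (smallest adjusted p = 0.444), with a background of 0%, and DESeq2 called 0 members (smallest adjusted p = 0.273), with a background of 0.339%. The blocked edgeR fit put 9 members (16.1%) under an unadjusted p of 0.05, against 8.2% of all tested genes. That count was not stable: it was 5, 0 and 7 without pairs 1, 2 and 3, and DESeq2 with the block had 4 members. Over all tested genes, the counts without pairs 1, 2 and 3 were 936 of 12665, 715 of 12719 and 1191 of 12572. DESeq2 with the block had 595 of 12826 genes. With all pairs in edgeR the 9 members were HNRNPAB, HNRNPU, HNRNPUL1, SRSF4, SF3A1, SF3A2, SF3B4 and SNRPA on the higher side and SF3B1 on the lower side. BHB was higher in 3 of 3 pairs in 18 members (32.1%, background 14.5%) and lower in 3 of 3 in 5 members (8.93%, background 15.7%). In the lists of partner genes given below, the share higher in 3 of 3 pairs was 27.5% in the spliceosome core outside the members. In the other lists it was 0% to 26.7%.

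Groups did not overlap in 10 of 56 members (17.9%), against 7.84% of all tested genes. BHB libraries lay above all controls in 9 members (background 4.06%) and below them in 1 (background 3.78%). The 9 were HNRNPH3, HNRNPUL1, U2AF2, U2AF1L4, SF3A1, SF3A2, SF3B4, SF3B6 and SNRPA, and the 1 was SNRPE. None of the 13 SR and TRA2 genes was among them (0%, background 7.84%), and 13 genes are too few to tell this from the background. In the lists of partner genes given below, the share without overlap was 15.9% in the spliceosome core outside the members. In the other lists it was 6.67% to 9.62%. The comparison with all genes was not matched for level. These shares describe the sets and were not tested.

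**Figure D2:**
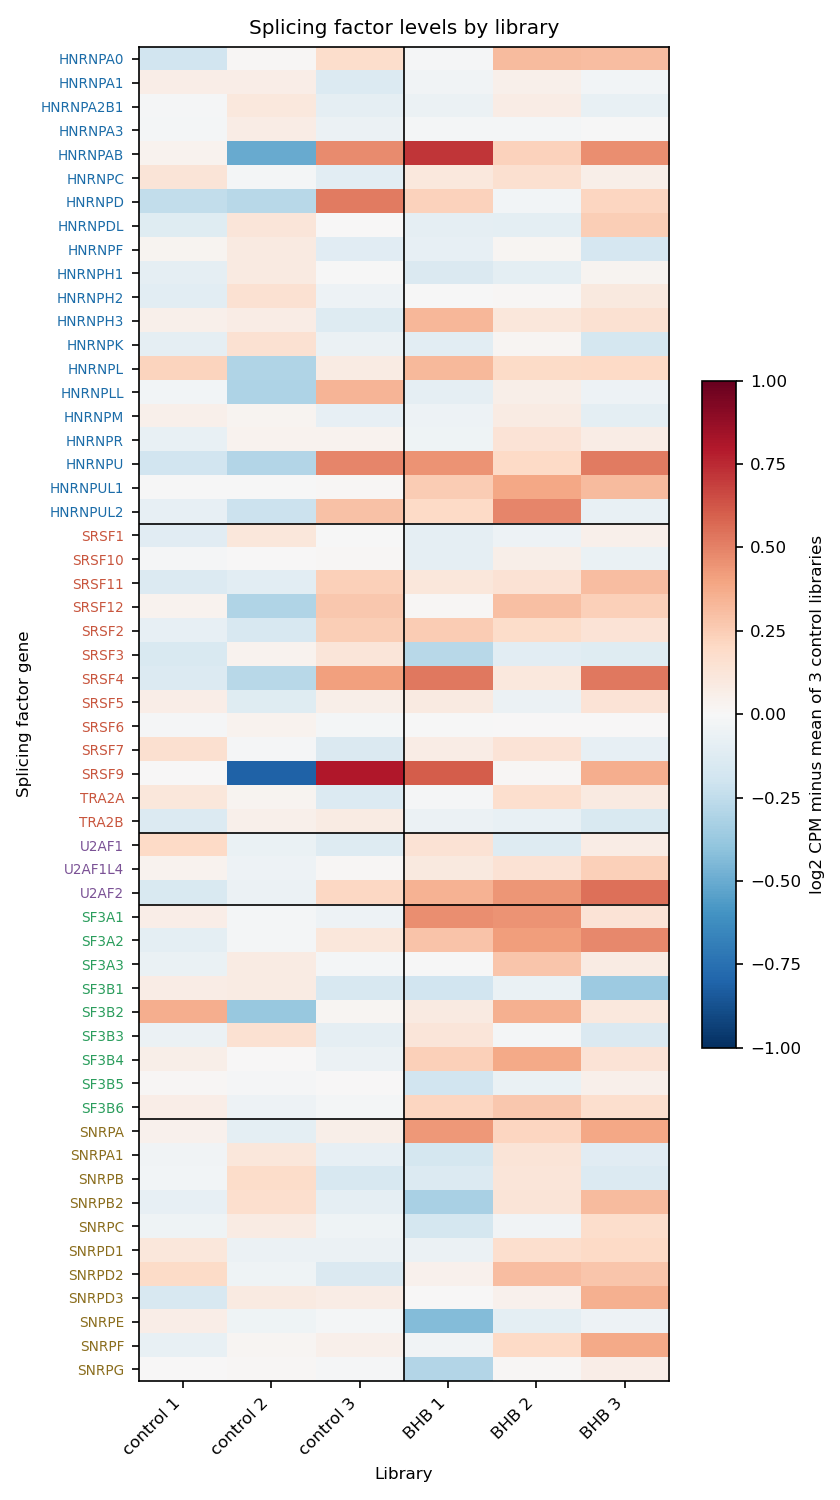
Level of each of the 56 splicing factor genes (rows, coloured by role group) in each library (columns), as log2 CPM minus the mean of the 3 control libraries. SRSF9 has the widest spread, from control library 2 to control library 3, and SRSF6 is nearly even across the 6 libraries.

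Among the 20 hnRNPs, 12 log2 fold changes were above 0 (60%, background 49.1%) and the median was 0.04. HNRNPA1, a repressor of exon inclusion, was at 905, 907 and 786 CPM in control libraries 1 to 3 and at 845, 896 and 848 CPM in BHB libraries 1 to 3. The BHB libraries lay inside the control range. Its log2 fold change was -0.0045 (SE 0.12), with a 95% interval from -0.28 to 0.27. HNRNPA1 has a large number of processed pseudogenes, and how reads that map to several places were treated is not stated, so its level is uncertain. HNRNPA2B1, its relative, was at 1355 ± 94.3 CPM in the control group and at 1335 ± 79.4 CPM after BHB (SD, n = 3 each).

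HNRNPK, which binds runs of C, was at 1186, 1405 and 1210 CPM in the controls, against 1176, 1279 and 1118 CPM with BHB. Its BHB value was below that of its control in 3 of 3 pairs, with a log2 fold change of -0.09 (SE 0.13), and the groups overlapped. HNRNPC, which binds runs of U and packages nascent RNA, was at 481 ± 41.0 CPM in the control group and at 517 ± 18.8 CPM after BHB (SD, n = 3 each). HNRNPF and HNRNPH1, which bind runs of G, had log2 fold changes of -0.08 (SE 0.12) and -0.07 (SE 0.12). Their relative HNRNPH3 was at 247, 251 and 218 CPM in the controls, against 300.3, 257 and 265 CPM with BHB. Its groups did not overlap, although control 2 and BHB 2 differed by only 0.03 on the log2 scale. The log2 fold change of HNRNPH3 was 0.20 (SE 0.13), and 0.129 without BHB library 1.

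HNRNPUL1, a relative of HNRNPU with a part in the DNA damage response, was at 65.2, 65.1 and 65.9 CPM in the controls, against 77.9, 85.4 and 81.3 CPM with BHB. All 3 BHB libraries were above all controls. The fitted log2 fold change was 0.32 (SE 0.13) with a 95% interval from 0.03 to 0.61, and it did not pass (edgeR adjusted p = 0.999, unadjusted p = 0.0343; with the pair block adjusted p = 0.54). HNRNPUL2 was at 6.99 ± 1.30 CPM without BHB and at 8.07 ± 1.57 CPM with it (SD, n = 3 each), with an interval from -0.44 to 0.85.

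HNRNPU and HNRNPAB had the largest differences among hnRNPs after pairing, and both depended on which control was left out. HNRNPU, a scaffold protein that binds nuclear RNA and chromatin, was at 596, 556 and 955 CPM in the controls, against 929.7, 781 and 979 CPM with BHB. Control libraries 1 and 2 lay below all BHB libraries and control 3 lay among them. For BHB over control, the log2 fold change was 0.35 (SE 0.21) with an interval from -0.12 to 0.82. Within pairs 1, 2 and 3 the difference was 0.64, 0.49 and 0.04. Without control library 3 the log2 fold change of HNRNPU was 0.639, with an edgeR adjusted p of 0.602. It was 0.210 without control library 2 and 0.249 without control library 1.

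HNRNPAB, an hnRNP that binds single-stranded nucleic acids, was at 334, 229.9 and 453 CPM in the controls, against 535, 384 and 452 CPM with BHB. Here too control 3 lay among the BHB libraries and the other controls below them. Its log2 fold change was 0.43 (SE 0.23), and 0.695 without control library 3 (edgeR adjusted p = 0.679). Without control library 2 it was 0.215, and without BHB library 1 it was 0.300. The differences within pairs were 0.68, 0.74 and -0.0047. In the authors' deposited table HNRNPAB (adjusted p = 0.00645) and HNRNPU (adjusted p = 0.00818) were the only members past 0.05, 2 of 56 (3.57%) against 5.04% of all genes. That deposited p-value tests pair and treatment jointly, so it is no test of BHB alone.

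HNRNPD, also called AUF1, binds AU-rich elements of messenger RNAs. It was at 217, 213 and 370.4 CPM in the controls, against 302, 252 and 299 CPM with BHB, so control 3 was the highest of the 6 libraries. Its log2 fold change of 0.09 (SE 0.22) became 0.402 without control library 3 and -0.047 without control library 2. HNRNPL and HNRNPLL, which bind CA-rich RNA, had log2 fold changes of 0.22 (SE 0.16) and -0.05 (SE 0.17). The HNRNPL value was 0.085 without control library 2 and 0.336 without control library 1. HNRNPR was at 266 ± 11.2 CPM in the control group and at 277 ± 16.7 CPM after BHB, and HNRNPDL at 242 ± 20.1 and 246 ± 34.7 CPM (SD, n = 3 each).

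Among the 13 SR and TRA2 genes, 9 log2 fold changes were above 0 (69.2%, background 49.1%) and the median was 0.06. SRSF1, an activator of exon inclusion, was at 385, 451 and 416 CPM in the controls, against 391, 403 and 431 CPM with BHB. The BHB libraries fell inside the control range, and the 95% interval of the log2 fold change ran from -0.31 to 0.24. SRSF6 was nearly level over the 6 libraries, at 262, 269.7 and 260.4 CPM in controls and 263, 264 and 265 CPM with BHB (log2 fold change 0.0017, SE 0.11). SRSF5 and SRSF7 had log2 fold changes of 0.06 (SE 0.13) and 0.04 (SE 0.13).

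SRSF3, the smallest SR protein, which also links splicing to export, was at 474, 539.9 and 572 CPM in the controls, against 434, 491 and 486 CPM with BHB. The BHB value was below its control in 3 of 3 pairs (log2 differences -0.13, -0.14 and -0.24), but the groups overlapped. The log2 fold change of SRSF3 was -0.17 (SE 0.13), and -0.108 without control library 3. TRA2B, which binds GAA-rich enhancers, was at 461, 523 and 536 CPM in the controls, against 486, 479 and 454 CPM with BHB. Its paralog TRA2A was at 135 ± 11.6 and 142 ± 8.61 CPM (SD, n = 3 each). Neither differed by more than the spread between libraries.

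SRSF4 and SRSF9 had the same order of controls as HNRNPU. SRSF4 was at 50.9, 46.3 and 74.3 CPM in the controls, against 80.8, 60.2 and 80.8 CPM with BHB. Control 3 again lay among the BHB libraries, and BHB was higher in 3 of 3 pairs. The log2 fold change of SRSF4 was 0.37 (SE 0.21), 0.606 without control library 3 and 0.241 without control library 2. SRSF9 was at 103, 58.7 and 179 CPM in the controls, against 156, 103 and 132 CPM with BHB. Control 2 was the lowest and control 3 the highest of the 6 libraries, so the control group enclosed the BHB group. Its log2 fold change was 0.20 (SE 0.34), 0.689 without control library 3 and -0.111 without control library 2.

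SRSF2, an SR protein that stays in the nucleus, was at 144, 136 and 181 CPM in the controls, against 182, 173 and 167 CPM with BHB. Its log2 fold change of 0.18 (SE 0.14) was 0.313 without control library 3 and 0.102 without control library 2. SRSF11 was at 169, 173 and 219 CPM in the controls, against 201, 206 and 231 CPM with BHB, higher in 3 of 3 pairs (log2 fold change 0.18, SE 0.14). The SRSF11 value was 0.310 without control library 3 and 0.116 without control library 1.

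**Figure D3:**
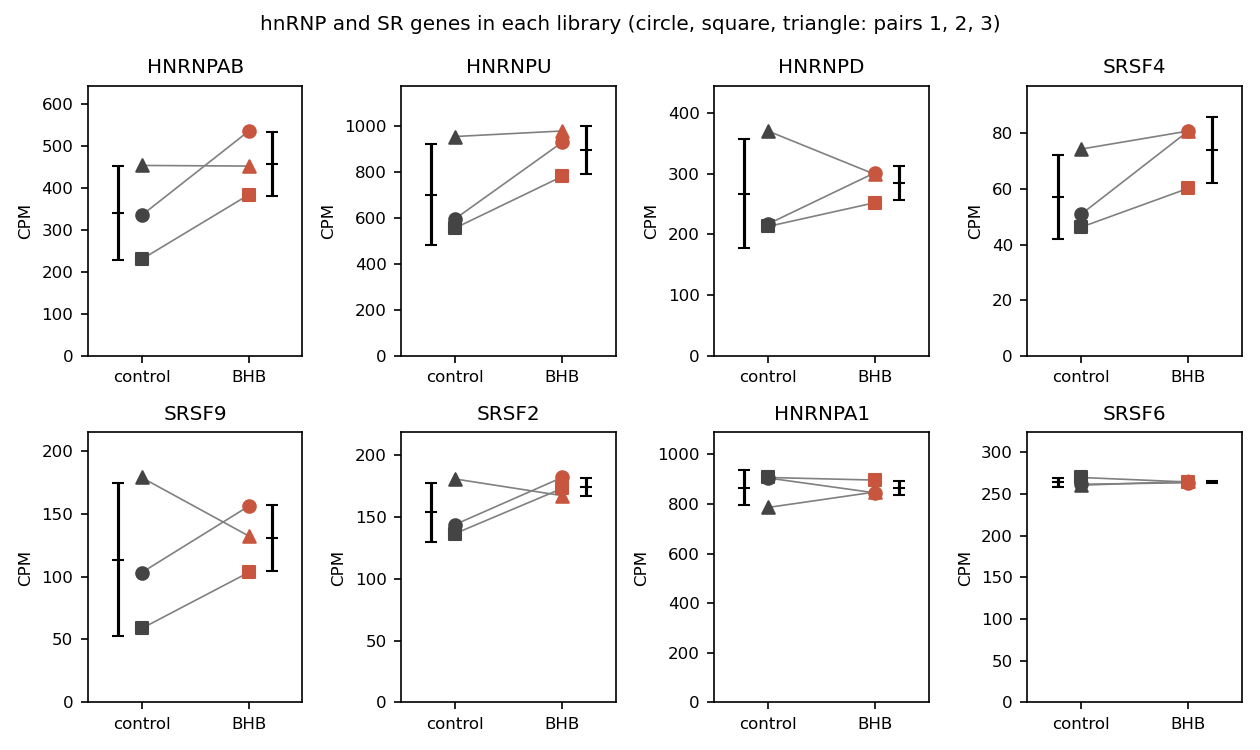
CPM (y axis, from 0) of 8 hnRNP and SR genes in control and BHB libraries; symbols and grey lines mark the pairs 1, 2 and 3, and black bars give mean ± SD (n = 3). In HNRNPAB, HNRNPU, HNRNPD, SRSF4, SRSF9 and SRSF2 control library 3 (triangle) is the highest control, and HNRNPA1 and SRSF6 are nearly level.

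The highest control was over 1.5 times the lowest in 7 of 56 members (12.5%), against 46.3% of all tested genes. These were SRSF9 (3.04 times), HNRNPAB (1.97), HNRNPD (1.74), HNRNPU (1.72), SF3B2 (1.67), SRSF4 (1.61) and HNRNPLL (1.57), with SF3B2 named here after its values were seen. Control 2 was the lowest control in 7 of these 7 and control 3 the highest in 6 of 7. How often this order occurs over all genes was not counted, so it is not shown to be particular to the members. The TMM factors of whole libraries were 0.945, 0.947 and 1.042 in control libraries 1 to 3. They were 1.01, 0.998 and 1.064 in BHB libraries 1 to 3. Among BHB libraries, 2 members had a range over 1.5 times, against 40.6% of all tested genes: SNRPB2 (1.56) and SRSF9 (1.51). Over all 6 libraries the SD of log2 CPM had a median of 0.145 over members and 0.298 over all genes counted in every library. The members' levels are mostly high, and the comparison was not matched for level.

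The pair itself was tested with treatment in the model. No member passed (edgeR, 0 of 56; background 4.12%), and at an unadjusted p under 0.05 there were 5 members (8.93%, background 20.6%). They were SRSF9 (unadjusted p = 0.00816, adjusted p = 0.103), HNRNPU (0.00903 and 0.108), HNRNPAB (0.0127 and 0.127), SRSF4 (0.0256 and 0.178) and HNRNPD (0.0285 and 0.187). DESeq2's likelihood ratio test of the same term called 1 member, HNRNPU, and 5.48% of all genes.

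All 3 U2AF genes had log2 fold changes above 0 (background 49.1%), but that of U2AF1 was -0.005 without control library 2 and -0.036 without control library 3. U2AF2, the large subunit, was at 7.08, 7.56 and 9.04 CPM in the controls, against 9.97, 10.7 and 11.5 CPM with BHB. Every BHB library was above every control, and each pair differed in the same direction, by 0.49, 0.50 and 0.35. The fitted log2 fold change was 0.44 (SE 0.24) with an interval from -0.11 to 0.99, and it rested on 417 counts in all 6 libraries. U2AF1, the small subunit that reads the AG at the intron end, was at 101, 83.9 and 80.3 CPM in the controls, against 97.3, 80.5 and 92.6 CPM with BHB (log2 fold change 0.03, SE 0.15). Its paralog U2AF1L4 was at 20.3, 19.1 and 19.96 CPM in the controls, against 21.1, 21.9 and 23.3 CPM with BHB, without overlap (0.16, SE 0.17). U2AF1L4 overlaps PSENEN, and the strand setting of the counting is not stated, so its level is uncertain.

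Among the 9 SF3A and SF3B genes, 6 log2 fold changes were above 0 (66.7%, background 49.1%) and the median was 0.16. In 4 of the 9 genes (44.4%, background 4.06%) the BHB libraries were above all controls. SF3A1, the largest subunit of SF3A, was at 53.8, 50.8 and 49.5 CPM in the controls, against 70.9, 69.9 and 56.5 CPM with BHB. BHB 3 was the closest to the controls, and all 3 pairs had BHB higher. For BHB over control, the log2 fold change was 0.36 (SE 0.15), with a 95% interval from 0.02 to 0.69 (edgeR adjusted p = 0.999, unadjusted p = 0.0409). SF3A2 was at 15.1, 15.9 and 17.5 CPM in the controls, against 19.7, 21.6 and 22.5 CPM with BHB (0.39, SE 0.18). Its differences within pairs were even, at 0.38, 0.44 and 0.36.

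SF3B4, which lies near the branch site, was at 117, 112 and 108 CPM in the controls, against 132, 146 and 123 CPM with BHB (log2 fold change 0.25, SE 0.13). SF3B6, a small subunit close to the branch point, was at 15.1, 13.9 and 14.2 CPM in the controls, against 16.7, 17.3 and 16.2 CPM with BHB (0.22, SE 0.19). Both had separate groups and neither passed. SF3A3 was at 215.5 ± 11.5 CPM in the control group and at 234 ± 24.1 CPM after BHB (SD, n = 3 each), higher in 3 of 3 pairs with groups that overlapped. SF3B5 had a log2 fold change of -0.07 (SE 0.15).

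SF3B1, the scaffold of SF3B that clamps the branch site and the target of several splicing inhibitors, differed in the other direction. It was at 667, 671 and 568 CPM in the controls, against 554, 606 and 493 CPM with BHB. BHB was lower in 3 of 3 pairs (log2 differences -0.27, -0.15 and -0.20), but control 3 lay below BHB 2. Its log2 fold change was -0.20 (SE 0.13) with a 95% interval from -0.51 to 0.10, and it was -0.131 without BHB library 3. It had an unadjusted p of 0.162 without pairs and 0.0483 with the pair block (edgeR adjusted p = 0.605 in the latter). Genes of the same complex thus had point estimates on both sides of 0, and whether SF3B1 differs from its partners was not tested.

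Among the 11 SNRP genes, 6 log2 fold changes were above 0 (54.5%, background 49.1%) and the median was 0.06. SNRPA, the U1 protein that binds a loop of the U1 RNA, was at 41.0, 37.1 and 41.3 CPM in the controls, against 53.8, 46.1 and 52.1 CPM with BHB. All 3 BHB libraries were above all controls, with even differences of 0.39, 0.31 and 0.33 within pairs. The fitted log2 fold change was 0.35 (SE 0.15) with an interval from 0.01 to 0.68 (edgeR adjusted p = 0.999, unadjusted p = 0.0441). SNRPB2, its U2 relative, was at 97.6, 116 and 97.2 CPM in the controls, against 82.4, 113 and 129 CPM with BHB, with BHB 1 the lowest and BHB 3 the highest of the 6 libraries. SNRPA1, which forms a pair with SNRPB2 on the U2 RNA, had a log2 fold change of -0.05 (SE 0.14).

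Of the Sm ring, SNRPE had BHB libraries below all controls. It was at 635, 589 and 600.5 CPM in the controls, against 449.5, 568 and 587 CPM with BHB. BHB library 1 stood far below the others, and control 2 and BHB 3 differed by little. The log2 fold change of SNRPE was -0.19 (SE 0.14), and -0.075 without BHB library 1. SNRPG, its neighbour in the ring, was at 295, 297 and 292 CPM in the controls, against 239.9, 297 and 308 CPM with BHB, so only BHB 1 was apart (log2 fold change -0.06, SE 0.13). SNRPD2 and SNRPD1 had log2 fold changes of 0.21 (SE 0.15) and 0.11 (SE 0.13). SNRPB was at 266.5 ± 32.4 CPM in the control group and at 257 ± 27.1 CPM after BHB (SD, n = 3 each). SNRPB and SNRPN encode nearly identical proteins, and small Sm genes have processed pseudogenes, so reads of these genes could be split.

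**Figure D4:**
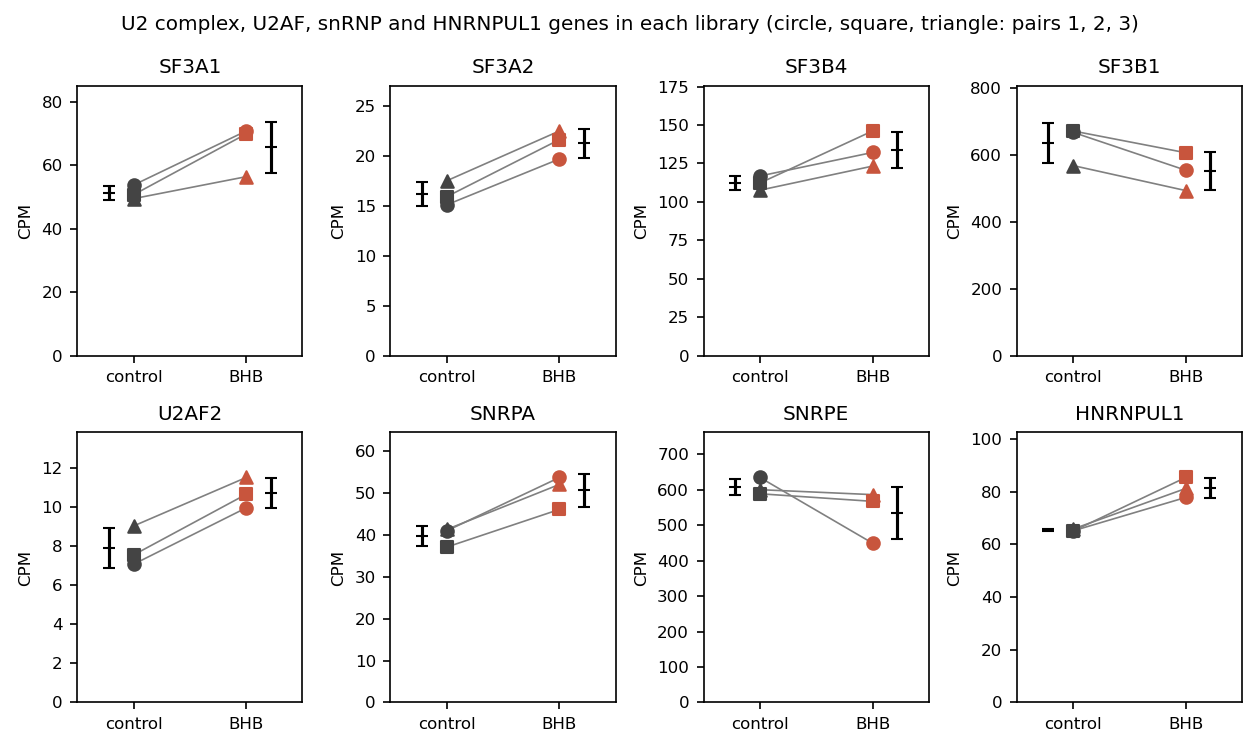
CPM (y axis, from 0) of 8 genes of the U2 complex, U2AF, the snRNPs and HNRNPUL1 in control and BHB libraries; symbols and grey lines mark the pairs 1, 2 and 3, and black bars give mean ± SD (n = 3). SF3A1, SF3A2, SF3B4, U2AF2, SNRPA and HNRNPUL1 have 3 BHB libraries above the 3 controls, SNRPE has them below, and SF3B1 is lower with BHB in each pair with groups that overlap.

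The remaining 10 members had log2 fold changes from -0.03 to 0.20. In the annotation ARS-UCD2.0, 10 of 56 members overlap the span of another protein-coding gene. The neighbours TGFB1 (of HNRNPUL1), ACTMAP (of SNRPA) and FKBP1B (of SF3B6) were not among the genes counted. Among the neighbours that were counted are NFE2 (of HNRNPA1), ENOPH1 (of HNRNPDL), METTL23 (of SRSF2), PSENEN (of U2AF1L4) and ESCO1 (of SNRPD1). These overlaps are of whole gene spans and not of exons, and the strands of the genes were not compared. How far reads of such neighbours could be mixed with those of a member was not tested.

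Ratios between members within a library do not depend on scaling. Of 14 ratios computed, 0 had an adjusted p under 0.05; with 3 against 3 libraries the smallest exact p is 0.1. Since gene lengths were not used, only shifts between libraries are read from a ratio, not which gene is higher. The 1 ratio at that smallest p was HNRNPH1 to HNRNPH2 (two-sided exact permutation test, p = 0.1, Benjamini-Hochberg adjusted p = 0.7). It stood at 1.48, 1.41 and 1.51 (log2) in controls and at 1.33, 1.36 and 1.40 with BHB, a difference of -0.11. Control 2 and BHB 3 were nearly equal. HNRNPH1 and HNRNPH2 are close paralogs, so reads could be split between them.

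Several other ratios varied widely among controls. SRSF1 to SRSF9 was at 2.02 ± 0.87 in controls and 1.66 ± 0.32 with BHB (log2, SD, n = 3 each). HNRNPR to HNRNPU was at -1.36 ± 0.40 and -1.69 ± 0.23. U2AF1 to U2AF2 differed by -0.42 between groups, SRSF4 to SRSF6 by 0.39, and SNRPA to SNRPB2 by 0.30, each with overlap of the groups. The smallest differences between groups were those of SNRPB to SNRPA1, at 0.003, and HNRNPA1 to HNRNPA2B1, at 0.02.

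**Figure D5:**
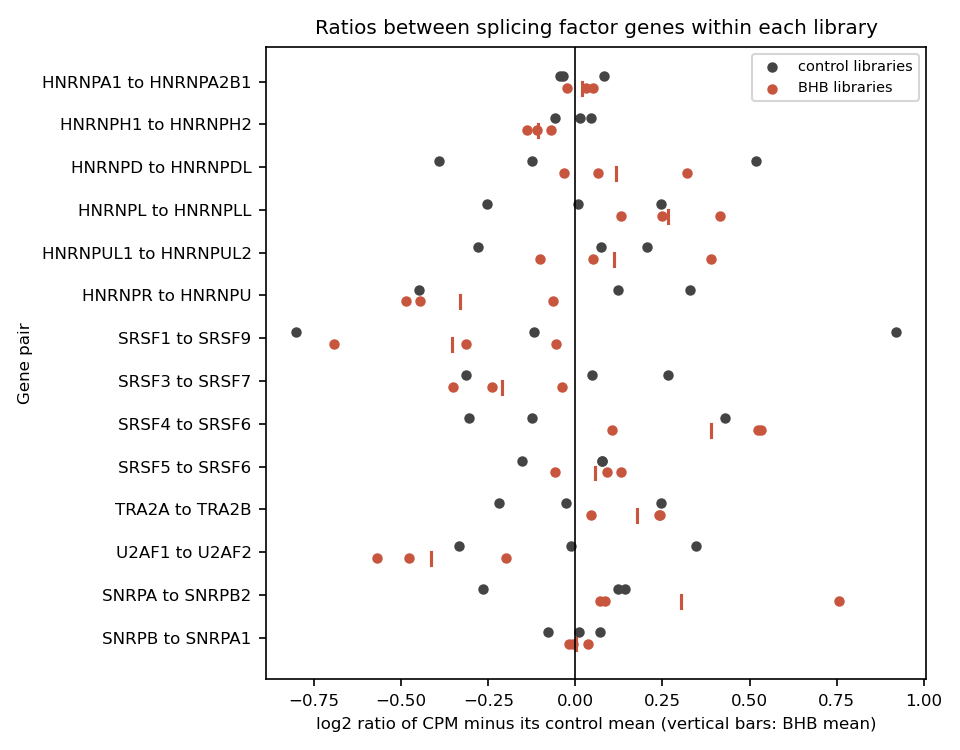
Log2 ratio of CPM between 14 pairs of splicing factor genes in each library, shown as the distance from the mean of the 3 controls (x axis); dots are libraries and vertical bars the BHB mean. For HNRNPH1 to HNRNPH2 the BHB libraries lie below all controls, and for SRSF1 to SRSF9 the controls span the widest range.

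In each of 5 lists of partners in splicing, 0 genes passed the threshold in either direction, with a background of 0% of 12732 tested genes. Of all tested genes, 49.1% had a log2 fold change above 0, and the lists lay on both sides of this share. In the spliceosome core outside the members, 48 of 69 tested genes were above 0 (median log2 fold change 0.05). IK, a spliceosome component, was at 198 ± 10.1 CPM in the control group and at 239 ± 20.1 CPM after BHB, and SYF2 at 124 ± 10.2 and 106 ± 13.6 CPM (SD, n = 3 each). Among other splicing regulators, 22 of 52 were above 0 (median -0.02). ESRP1, a regulator of epithelial splicing, was at 91.8, 94.7 and 85.2 CPM in the controls, against 64.4, 73.7 and 69.9 CPM with BHB. Its groups did not overlap, and it did not pass (log2 fold change -0.39, SE 0.13, edgeR adjusted p = 0.999). RBM25 was at 201 ± 1.54 CPM in the control group and at 234.5 ± 17.8 CPM after BHB (SD, n = 3 each).

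Kinases, a phosphatase and importins of SR proteins had 8 of 15 genes above 0 (median 0.001). CLK1, which phosphorylates SR proteins, was at 129, 132 and 146 CPM in the controls, against 109, 116 and 118 CPM with BHB, without overlap (-0.25, SE 0.13), and SRPK2, another such kinase, at 63.7 ± 16.5 and 74.9 ± 9.06 CPM (SD, n = 3 each). Genes of Sm ring assembly and snRNP biogenesis had 15 of 23 above 0 (median 0.03). SART3, which helps to recycle snRNPs, was at 55.6 ± 1.78 and 66.5 ± 3.89 CPM (SD, n = 3 each). The importin KPNB1 was at 68.5, 24.1 and 19.4 CPM in the controls, against 18.5, 25.2 and 23.5 CPM with BHB, so control 1 alone was high. The exon junction complex and nonsense-mediated decay had 10 of 15 above 0 (median 0.03), and its members CASC3 and SMG9 had log2 fold changes of 0.18 (SE 0.13) and -0.41 (SE 0.30).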

How the data were processed

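The authors deposited raw counts per gene, as whole numbers, for 6 libraries, and a table of results. The submitters' processing notes name STAR, featureCounts and DESeq2; versions, build, annotation, strand setting and the handling of multiply mapped reads are not stated there. The authors' deposited table holds a mean on a normalized count signal scale, a log2 fold change with its error, a test score, and p-values raw and adjusted. The RNA was polyadenylated and the library kit stranded, per the labels' protocols. Replicate numbers follow the order of deposit, because the labels give none.

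The smallest gene total was 38 counts. All tests were fitted to the whole table; filterByExpr removed 94 genes and left 12732, with all 56 members. edgeR 4.0.16 (R 4.3.3) with TMM factors and the quasi-likelihood F test was the main test, with treatment alone; DESeq2 1.42.0, limma 3.58.1 and the pair block were alternatives. SE and 95% intervals come from the F statistic and its degrees of freedom. Same-numbered control and BHB libraries had deviations from group means that correlated over genes at 0.46, 0.32 and 0.33.

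Members and lists were chosen with earlier results of these data known. Genes named were those with the 2 smallest p in each direction and the smallest p of the pair term per role, those without overlap, those of a ratio, and a fixed set, plus 1 gene per direction in each list. Levels were not compared between genes, because transcript lengths were not used here; for the same reason the naming of the highest and lowest member per length was not applied. SRSF8 is not analysed here. Reference symbols are from ARS-UCD2.0, without coordinates because no build is named; 56 of 56 members matched.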

Additional observations from a re-analysis of the deposited data

How the results depend on the processing

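No member was called under any of the alternatives run for the treatment (0 in each). The same fits called few of all genes, at most 35 (0.339%, DESeq2 with the replicate block). The median of the members was 0.138 with scaling by library size alone, and 0.052 to 0.094 when each library was left out. In the latter fits 34 to 39 members were above 0, against 49% to 51.2% of all tested genes. The fits with the replicate block changed no call for treatment. For the pair term, DESeq2's likelihood ratio test called 1 member. Of 46 named members, 28 kept their sign in every fit run and 18 did not. With library size alone the log2 fold change turned to 0.066 for HNRNPA1, 0.047 for HNRNPA2B1, 0.001 for HNRNPLL, 0.003 for SF3B5, 0.016 for SNRPA1 and for SNRPB, 0.004 for SNRPG and 0.037 for SRSF1. With upper quartile factors HNRNPA1 was at 0.003, and DESeq2 gave -0.003 for SRSF6 both without and with the replicate block. In the edgeR fit with replicate block but without pair 1, HNRNPA1 was at 0.046, HNRNPD at -0.036, SNRPG at 0.039 and SRSF6 at -0.003. Without pair 2, HNRNPA1 was at 0.007, HNRNPUL2 at -0.042, SRSF1 at 0.039 and SRSF7 at -0.010. Without pair 3, HNRNPDL was at -0.082, HNRNPH2 at -0.015, HNRNPLL at 0.160, SNRPB2 at -0.129 and U2AF1 at -0.046. When each library was left out, log2 fold changes ran from -0.008 to 0.019 for SRSF6, -0.07 to 0.031 for HNRNPA1, -0.069 to 0.035 for HNRNPA2B1, -0.195 to 0.133 for HNRNPLL, -0.145 to 0.01 for SNRPA1, -0.142 to 0.046 for SNRPB, -0.133 to 0.039 for SNRPG and -0.083 to 0.029 for SRSF1. They ran from -0.047 to 0.402 for HNRNPD, -0.097 to 0.088 for HNRNPDL, -0.017 to 0.111 for HNRNPH2, -0.001 to 0.113 for SRSF5, -0.111 to 0.689 for SRSF9, -0.036 to 0.137 for U2AF1, -0.03 to 0.128 for SRSF7 and -0.085 to 0.222 for SNRPB2. The cause of these turns was not tested. Depth limits HNRNPUL2 and U2AF2 most, with 340 and 417 counts in all.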
